A study of Mus musculus with 12 samples.

Results

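The insulin-like growth factor (IGF) genes described here are 10 rows of a gene count table from newborn mouse lung: the ligands Igf1 and Igf2, the receptors Igf1r and Igf2r, and the binding proteins Igfbp2, Igfbp3, Igfbp4, Igfbp5, Igfbp6 and Igfbp7. They were taken by gene symbol from 23478 rows, and all 10 passed the filter on low counts that left 15761 genes for testing. Newborn C57/Bl6 mice were injected in the peritoneum on day 0 with 25 mg/kg aurothioglucose (ATG) or with saline. ATG contains gold and is an inhibitor of thioredoxin reductase. They were then kept in oxygen above 95% for 72 h (hyperoxia) or in room air, for which the labels give no duration. RNA came from lungs after removal of the lavage fluid. The 4 groups, each of 3 libraries, were ATG with hyperoxia, saline with hyperoxia, ATG with room air, and saline with room air. Strain was the same in all groups, and every mouse had an injection. The labels give neither the litter nor the animal behind a library, so p-values measure only the spread between these libraries, which may be partly technical.

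IGF1 and IGF2 are secreted peptides that signal through the tyrosine kinase receptor encoded by Igf1r to promote growth and survival of cells. The receptor encoded by Igf2r, which also carries mannose-6-phosphate-tagged enzymes to lysosomes, binds IGF2 and takes it up for degradation. The binding proteins hold IGFs in the extracellular space and release them when proteases cut them, and Igfbp7, a more distant relative, binds IGFs only weakly. In the developing lung, IGF signalling acts on alveolar and vascular growth.

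In hyperoxia, averaged over both injections, Igf2r and Igfbp7 rose and Igf1 and Igfbp4 fell, by 0.23 to 0.46 on the log2 scale. The other 6 members did not pass the test in that comparison. In these bulk libraries, fewer cells of a type and less RNA per cell cannot be told apart. The test was edgeR's quasi-likelihood test on the counts, with p-values adjusted by Benjamini-Hochberg over all 15761 genes and a threshold of 0.05. It called 22.4% of all genes (11.0% higher, 11.3% lower) and 4 of the 10 members. Among saline-injected mice alone, where 9.19% of all genes were called (4.70% higher, 4.50% lower), 3 members passed, Igf2r and Igfbp7 higher and Igfbp4 lower. Among ATG-injected mice alone, where 11.7% of all genes were called (5.41% higher, 6.25% lower), 3 members passed, Igf2r higher and Igf1 and Igfbp4 lower. The median log2 fold change of the members was 0.05 after ATG, 0.30 after saline and 0.17 averaged, while the median over all genes was 0.00 in each of these comparisons.

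**Figure D1:**
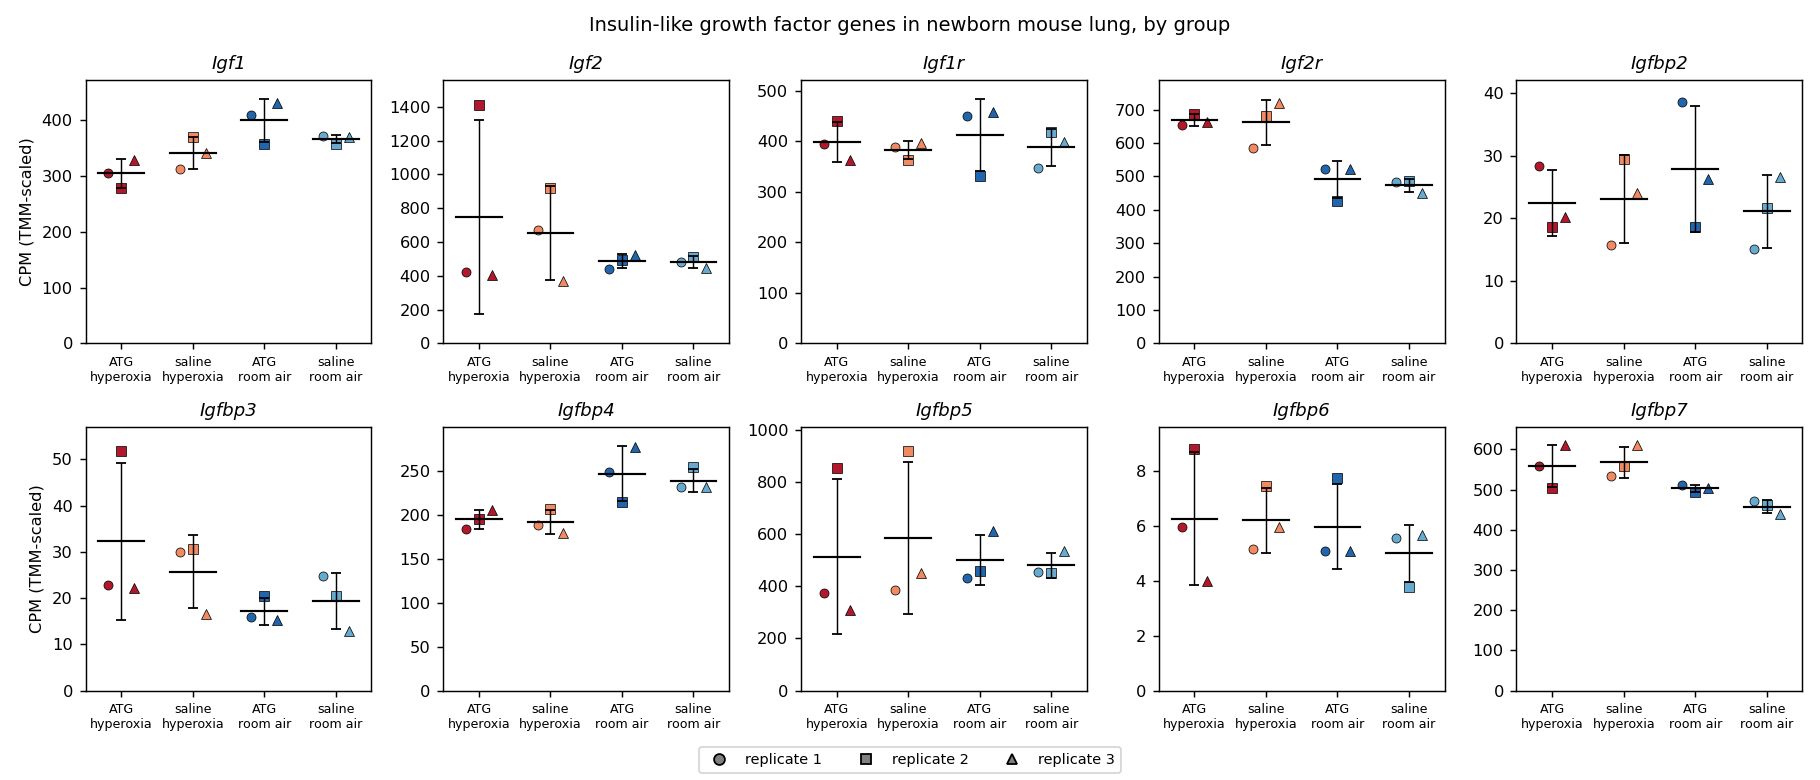
TMM-scaled level in CPM (counts scaled to library size) of each member in each library. Points are libraries, horizontal bars are group means and error bars are 1 SD (n = 3). Igf2r is at 587 to 719 CPM in the 6 hyperoxia libraries, above the 426 to 524 CPM of the 6 room air libraries.

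Total counts were between 14331749 and 20486735 per library, and the lowest count of any member was 61, for Igfbp6. Alveolar epithelial markers were abundant in every library, with a summed level of 11686 to 16052 CPM over 10 genes, as the lung label requires. A group of 3 libraries stood apart by heart or skeletal muscle transcripts. Liver and thymocyte transcripts, seen also in libraries outside these 3, are described at the end. The sum of 8 cardiomyocyte markers was 6771 CPM in ATG hyperoxia replicate 2 and 3019 CPM in saline hyperoxia replicate 2, against 398 to 934 CPM in the other 10 libraries. The sum of 7 skeletal muscle markers was 356 CPM in saline hyperoxia replicate 1, against 20.8 to 62.0 CPM in the other 11. Hence 3 of the 6 hyperoxia libraries, and no room air library, were rich in heart or muscle transcripts. Counts over lists of marker or pathway genes are from all 12 libraries. For members and named pathway genes, values are given without the 3 rich libraries wherever they change a call. Without all 3, saline hyperoxia keeps 1 library, which is assumed to vary like the other groups. The libraries to leave out were chosen with these data already seen, so p-values without them are no independent tests.

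Some markers of lung cell types also passed the test in the mean contrast, where 11.3% of all genes fell and 11.0% rose. Of 10 lung fibroblast markers 2 fell, Pdgfra and Col1a2, and 0 rose, with 9 of 10 log2 fold changes below 0 and a median of -0.23. Their summed level overlapped, at 5316 to 7342 CPM in hyperoxia against 5727 to 7351 CPM in room air, while Pdgfra was at 105 to 130 CPM in hyperoxia against 143 to 230 CPM in room air. Of 8 markers of pericytes and smooth muscle 5 fell and 0 rose, and of 10 alveolar epithelial markers 4 rose and 0 fell. Of 8 endothelial markers 2 rose and 2 fell, of 6 tested macrophage markers 2 rose and 0 fell, and of 6 mesothelial markers 0 passed. By injection, 5 alveolar epithelial markers rose after saline (4.70% of all genes) and 1 after ATG (5.41%), with medians of 0.26 and -0.05. Their summed level was 11686 to 12316 CPM in saline room air and 13726 to 15330 CPM in ATG room air, against 13740 to 16052 CPM in hyperoxia. The part of these cell types in the changes of Igf1, Igf2r, Igfbp4 and Igfbp7 was not tested.

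Members differed widely in abundance. On a per-length scale, in CPM per kb of annotated exon averaged over the 12 libraries, Igfbp7 was highest at 431, and its libraries did not overlap those of the next member. Igf2 followed at 103, then Igfbp5 at 86.7, Igf2r at 61.6, Igfbp4 at 49.4 and Igf1 at 35.6. The receptor Igf1r was at 23.6 CPM per kb and did not overlap Igf1 on this scale. In CPM, without division by length, Igf1r at 331 to 458 overlapped Igf1 at 278 to 431. The lowest levels were those of Igfbp2 at 12.8, Igfbp3 at 7.55 and Igfbp6 at 5.26 CPM per kb. Apart from the 2 gaps named, the ranges of neighbours in this order overlapped.

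Igf1 encodes the ligand that acts mainly through Igf1r (chromosome 10, 87858265 to 87937047). Its level was 305, 278 and 328 CPM in ATG hyperoxia and 311, 370 and 341 CPM in saline hyperoxia, against 410, 357 and 431 CPM in ATG room air and 371, 358 and 369 CPM in saline room air. The ATG hyperoxia libraries were all below the ATG room air libraries, while the saline groups overlapped. Averaged over injections, Igf1 fell by 0.25 on the log2 scale (SE 0.065, adjusted p = 0.0129, edgeR). Without the 3 heart- or muscle-rich libraries the fall was 0.20 and no longer passed (adjusted p = 0.101). After ATG alone Igf1 had a log2 fold change of -0.39 (SE 0.092, adjusted p = 0.0119, edgeR), and after saline -0.10 (SE 0.092, adjusted p = 0.559). The ATG call was lost without ATG room air replicate 1 (-0.35) or 3 (-0.32), without ATG hyperoxia replicate 2 (-0.32), without the 2 heart-rich libraries (-0.32) or all 3 rich ones (-0.31), and when the 6 ATG libraries were fitted alone (-0.38). The difference between the 2 hyperoxia effects was -0.29 (SE 0.13, unadjusted p = 0.0413, adjusted p = 1.00, edgeR), so a dependence on the injection was not shown.

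Igf2 encodes the second ligand, imprinted and expressed from the paternal allele (chromosome 7, 142650768 to 142666816, minus strand). Igf2 was at 423, 1410 and 406 CPM in ATG hyperoxia and 671, 920 and 368 CPM in saline hyperoxia, against 442, 497 and 524 CPM in ATG room air and 484, 514 and 445 CPM in saline room air. The room air libraries were within a narrow range, and the hyperoxia libraries fell on both sides of it. The mean hyperoxia contrast was 0.53 (SE 0.27, adjusted p = 0.191, edgeR), and neither injection passed alone, at 0.61 after ATG (adjusted p = 0.355) and 0.44 after saline (adjusted p = 0.550). Without ATG hyperoxia replicate 2 the ATG value turned to -0.22. The 3 high hyperoxia libraries, at 671 to 1410 CPM, were the 3 that were rich in heart or muscle transcripts. The other 3 hyperoxia libraries were at 368 to 423 CPM, below all 6 room air libraries at 442 to 524 CPM. Without the 3 rich libraries the mean contrast turned to -0.29, and without only the 2 heart-rich ones it was -0.05. Since the rich libraries were also the highest in Igf2 among the hyperoxia libraries, leaving them out lowers the hyperoxia mean by selection. Mesothelial markers were also highest in the 2 heart-rich libraries, at 400 CPM in ATG hyperoxia replicate 2 and 390 CPM in saline hyperoxia replicate 2, against 157 to 308 CPM in the other 10. Dcn, which encodes the matrix proteoglycan decorin and is named after its values were seen, was at 229 CPM in ATG hyperoxia replicate 2 and 247 CPM in saline hyperoxia replicate 2, against 48.4 to 89.2 CPM elsewhere. The part of heart, muscle, mesothelial or connective tissue RNA in the level of Igf2 was not tested. The annotated exons of Igf2 overlap those of the antisense gene Igf2os by 98 bases and of Gm49394, on the same strand, by 3596 bases, and how reads in shared exons were assigned is not given in the sources used here.

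H19, the maternally expressed noncoding RNA beside Igf2, showed the same split of libraries. H19 was at 352, 969 and 315 CPM in ATG hyperoxia and 573, 725 and 303 CPM in saline hyperoxia, against 561, 568 and 587 CPM in ATG room air and 501, 560 and 495 CPM in saline room air. The 3 hyperoxia libraries without excess heart or muscle transcripts were all below room air. Over all 12 libraries the mean hyperoxia contrast of H19 was -0.01 (adjusted p = 0.975, edgeR). It was -0.50 without the 2 heart-rich libraries (adjusted p = 0.00975, edgeR) and -0.76 without all 3 rich ones. The libraries left out were the hyperoxia libraries with the highest H19, so leaving them out lowers the hyperoxia mean by selection. The scaled levels of these genes by library are plotted beside a heart and a muscle transcript.

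**Figure D2:**
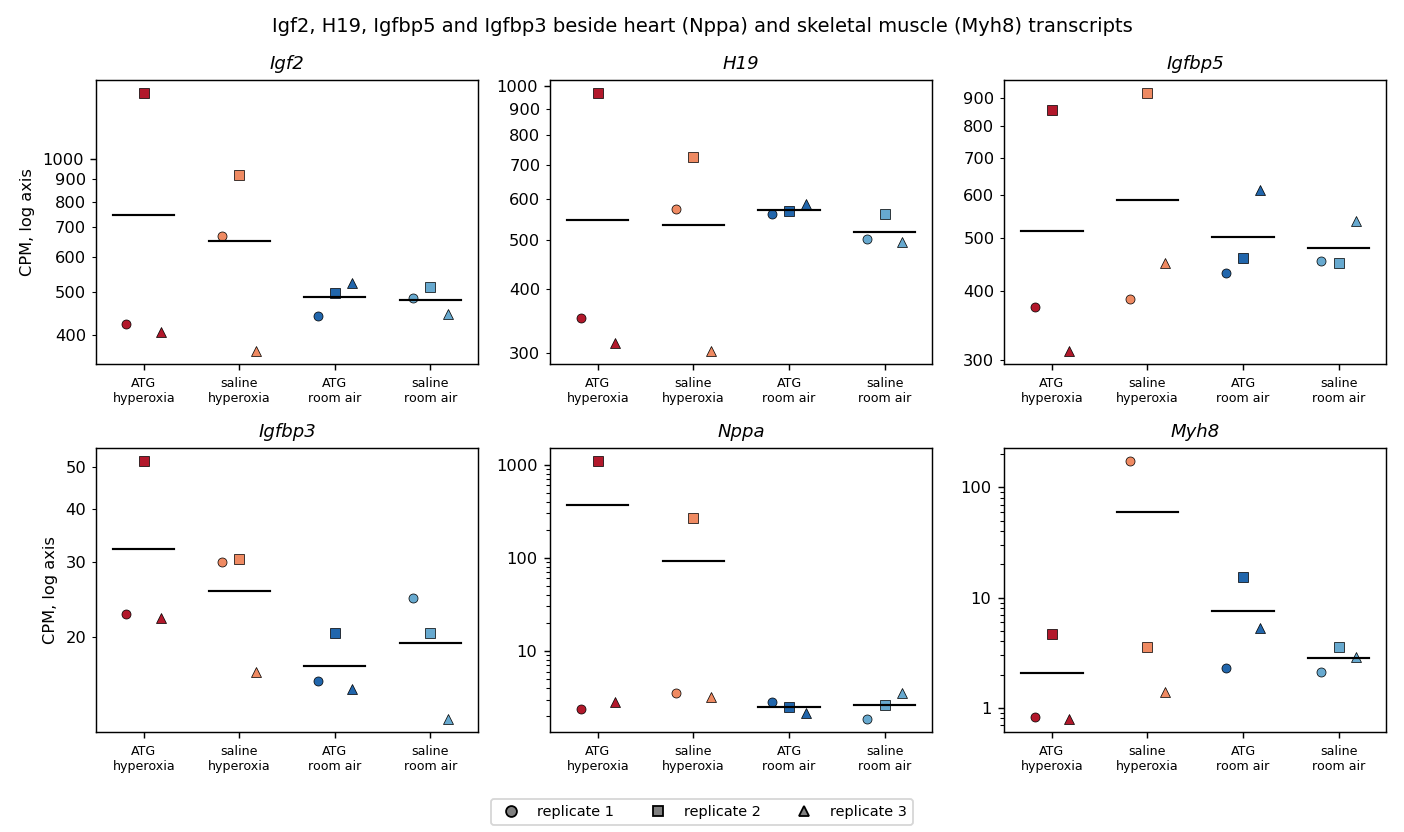
Levels in CPM (log axis) of Igf2, H19, Igfbp5 and Igfbp3, with the heart transcript Nppa and the skeletal muscle transcript Myh8, in each library. Points are libraries and bars are group means. Nppa reached 1108 CPM in ATG hyperoxia replicate 2 and 270 CPM in saline hyperoxia replicate 2, and Myh8 reached 175 CPM in saline hyperoxia replicate 1.

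Of the receptors, Igf2r changed and Igf1r did not pass the test. Igf2r (chromosome 17, 12682406 to 12769706, minus strand) is imprinted in the mouse and expressed from the maternal allele in most tissues. It was at 654, 688 and 664 CPM in ATG hyperoxia and 587, 680 and 719 CPM in saline hyperoxia, against 524, 426 and 524 CPM in ATG room air and 482, 486 and 452 CPM in saline room air. Every hyperoxia library was above every room air library, a separation whose share over all genes was not counted. Igf2r rose 1.38-fold averaged over injections (log2 fold change 0.46, SE 0.067, adjusted p = 0.000185, edgeR). The rise was 0.44 after ATG (SE 0.095, adjusted p = 0.00682) and 0.48 after saline (SE 0.095, adjusted p = 0.00597). In the mean contrast the call held in all 20 alternative settings, with values of 0.43 to 0.53, the leaving out of the heart- or muscle-rich libraries included.

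Igf1r, the signalling receptor (chromosome 7, 67952257 to 68233668), was at 395, 439 and 362 CPM in ATG hyperoxia and 388, 363 and 396 CPM in saline hyperoxia, against 451, 331 and 458 CPM in ATG room air and 348, 418 and 399 CPM in saline room air. The groups overlapped throughout. Its mean hyperoxia contrast was -0.04 (SE 0.084, adjusted p = 0.803, edgeR), with -0.05 after ATG and -0.02 after saline.

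The binding protein Igfbp4 fell. Igfbp4 (chromosome 11, 99040005 to 99052655) is known mainly as an inhibitor of IGF action that the protease pappalysin-1 cleaves. It was at 184, 195 and 206 CPM in ATG hyperoxia and 189, 206 and 180 CPM in saline hyperoxia, against 248, 214 and 277 CPM in ATG room air and 231, 254 and 231 CPM in saline room air. Every hyperoxia library was below every room air library, a separation likewise not counted over all genes. The mean hyperoxia contrast was -0.33, a ratio of 0.796 (SE 0.067, adjusted p = 0.00256, edgeR), and it held in all 20 alternatives, at -0.36 to -0.27. The call for either injection alone was close to the threshold, at -0.34 after ATG (adjusted p = 0.0305) and -0.32 after saline (adjusted p = 0.0485). The ATG call was lost without ATG hyperoxia replicate 1 (-0.28) or 2 (-0.32), without ATG room air replicate 1 (-0.32) or 3 (-0.23), with sex as a covariate (-0.27), without the 2 heart-rich libraries (-0.32) or all 3 rich ones (-0.31), and in the fit of the 6 ATG libraries alone (-0.33). The saline call was lost without saline hyperoxia replicate 1 (-0.30) or 3 (-0.27), and without saline room air replicate 1 (-0.33), 2 (-0.27) or 3 (-0.34). It was also lost with a replicate block, and without the 3 rich libraries (-0.40).

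The promoters of Igf2r and Igfbp4 are shown because these were the members that separated hyperoxia from room air in every library, in opposite directions. Such separation was not particular to them: Mest, Dlk1, Htra1, Grb10 and Igf2bp2 showed it too, and its share over all genes was not counted. Each run is 300 bases from RefSeq (GRCm38.p6), from 250 before to 50 after the listed start, on the gene's own strand. Capitals mark 3 motifs searched on both strands, the GC box (letters GGGCGG), the TATA box (letters TATAAA) and the E box (letters CACGTG), and no match of one overlaps a match of another. The Igf2r window is chr17:12769657-12769956 on the minus strand, and that of Igfbp4, whose listed start is inside the RefSeq gene, is chr11:99040994-99041293 on the plus strand.
Igf2r: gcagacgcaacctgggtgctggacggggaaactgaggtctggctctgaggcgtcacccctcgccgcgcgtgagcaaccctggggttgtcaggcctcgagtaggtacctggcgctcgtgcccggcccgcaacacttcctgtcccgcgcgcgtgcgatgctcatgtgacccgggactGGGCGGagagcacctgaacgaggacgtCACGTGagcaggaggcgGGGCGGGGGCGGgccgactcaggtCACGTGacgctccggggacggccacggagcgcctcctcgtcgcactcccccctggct
Igfbp4: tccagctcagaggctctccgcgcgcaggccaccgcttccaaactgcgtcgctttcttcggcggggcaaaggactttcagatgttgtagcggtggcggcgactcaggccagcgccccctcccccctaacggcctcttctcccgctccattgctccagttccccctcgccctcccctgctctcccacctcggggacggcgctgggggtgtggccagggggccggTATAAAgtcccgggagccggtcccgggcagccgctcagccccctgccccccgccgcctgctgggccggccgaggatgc
The background is 27025 promoter windows, the first listed for each gene. The Igf2r window holds 34 CpG pairs, more than 92.5% of these, and the Igfbp4 window holds 27, more than 84.6%, while the median window holds 7. The Igf2r window has 3 GC boxes, 2 E boxes and no TATA box. The Igfbp4 window has 1 TATA box and neither of the other motifs. Of the background windows, 35.9% hold the GC box, 14.2% the TATA box and 7.24% the E box, and a match describes letters only.

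Igfbp7, which is abundant in vascular cells (chromosome 5, 77349240 to 77408045, minus strand), rose on average over injections. It was at 559, 505 and 610 CPM in ATG hyperoxia and 534, 559 and 610 CPM in saline hyperoxia, against 512, 494 and 503 CPM in ATG room air and 471, 462 and 440 CPM in saline room air. The saline groups did not overlap, whereas ATG hyperoxia replicate 2 was inside the range of ATG room air. The mean contrast was 0.23, or 1.17-fold (SE 0.058, adjusted p = 0.0100, edgeR), and held in all 20 alternatives at 0.21 to 0.34. After ATG it was 0.15 (adjusted p = 0.278) and after saline 0.31 (adjusted p = 0.0278). The saline call was lost without saline hyperoxia replicate 3 (0.26), without saline room air replicate 1 (0.34), 2 (0.33) or 3 (0.29), and with sex as a covariate (0.30). The difference between these effects was -0.16 (SE 0.12, adjusted p = 1.00, edgeR), so they were not shown to differ. Summed markers of pericytes and smooth muscle were at 1175 to 1391 CPM in hyperoxia against 1534 to 1816 CPM in room air, and summed endothelial markers at 2381 to 2788 CPM in hyperoxia against 2661 to 3101 CPM in room air. Their part in the level of Igfbp7 was not tested. The exons of Igfbp7 share 85 bases with those of Polr2b on the opposite strand.

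Igfbp5 (chromosome 1, 72858065 to 72874865, minus strand) binds to the extracellular matrix and is expressed in muscle and mesenchyme. It was at 375, 856 and 311 CPM in ATG hyperoxia and 387, 920 and 451 CPM in saline hyperoxia, against 431, 461 and 612 CPM in ATG room air and 453, 450 and 537 CPM in saline room air. The 2 highest libraries were the 2 heart-rich ones. With all libraries the mean contrast was 0.16 (adjusted p = 0.682, edgeR), 0.04 after ATG and 0.29 after saline. The mean turned to -0.12 without ATG hyperoxia replicate 2 and to -0.07 without saline hyperoxia replicate 2. Without the 2 heart-rich libraries it was -0.36 (adjusted p = 0.0184, edgeR), and without all 3 rich ones -0.30. After ATG the values were -0.53 (adjusted p = 0.0271, edgeR) and -0.52 under the same 2 settings. Leaving out the 2 libraries highest in Igfbp5 lowers the hyperoxia mean by selection. The mesothelial markers and Dcn given beside Igf2 were highest in the same 2 libraries, and the part of these tissues in the level of Igfbp5 was not tested.

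Igfbp3 (chromosome 11, 7206086 to 7215498, minus strand), the main carrier of IGFs in plasma, was a low-level transcript here. It was at 22.7, 51.9 and 22.3 CPM in ATG hyperoxia and 30.1, 30.6 and 16.6 CPM in saline hyperoxia, against 15.8, 20.5 and 15.2 CPM in ATG room air and 24.7, 20.5 and 12.9 CPM in saline room air. After ATG every hyperoxia library was above room air, and after saline the groups overlapped. The mean contrast was 0.66 (SE 0.23) and missed the threshold with adjusted p = 0.0528 (edgeR). It passed in 8 of 20 alternatives, with values of 0.11 to 0.78 over all 20, the lowest without the 3 heart- or muscle-rich libraries. Among those 8 were the fits without ATG hyperoxia replicate 1 (0.77) or 3 (0.77), saline hyperoxia replicate 3 (0.78), ATG room air replicate 2 (0.75) or saline room air replicate 1 (0.78), and those with DESeq2's size factors (0.66) or with no filter on low counts (0.66). Without ATG hyperoxia replicate 2, the highest library, the value was 0.41 (adjusted p = 0.125, edgeR). The hyperoxia value was 0.91 after ATG (adjusted p = 0.0890) and 0.41 after saline (adjusted p = 0.496). Without ATG hyperoxia replicate 3 the ATG value was 1.13 and passed (adjusted p = 0.0491, edgeR).

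Igfbp2, which lies next to Igfbp5 (chromosome 1, 72824480 to 72852474), and Igfbp6, which prefers IGF2 (chromosome 15, 102144186 to 102149512), did not pass. Igfbp2 was at 18.7 to 28.4 CPM in ATG hyperoxia, 15.7 to 29.6 in saline hyperoxia, 18.6 to 38.6 in ATG room air and 15.1 to 26.7 in saline room air. Igfbp6 was at 3.99 to 8.80 CPM in ATG hyperoxia, 5.15 to 7.46 in saline hyperoxia, 5.06 to 7.74 in ATG room air and 3.78 to 5.65 in saline room air. All these ranges overlapped. The mean hyperoxia contrasts were -0.09 for Igfbp2 (SE 0.20, adjusted p = 0.786) and 0.19 for Igfbp6 (SE 0.21, adjusted p = 0.578, edgeR). By injection, Igfbp2 had -0.31 after ATG and 0.13 after saline, and Igfbp6 had 0.07 after ATG and 0.31 after saline.

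**Figure D3:**
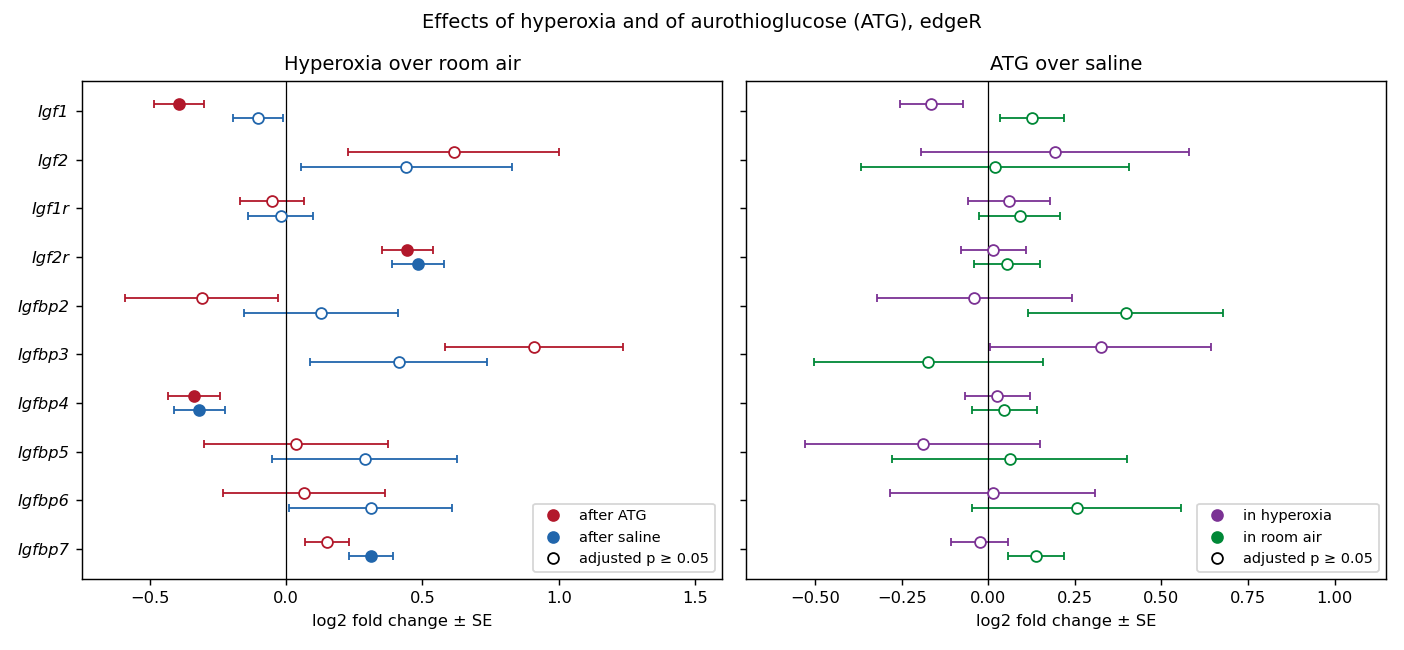
Log2 fold change with SE for each member, hyperoxia over room air (left) and ATG over saline (right). Filled points passed an adjusted p of 0.05. Igf2r and Igfbp4 pass after both injections, Igf1 after ATG and Igfbp7 after saline, and no member passes in the ATG comparisons.

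No member passed the test for ATG over saline. In hyperoxia, ATG over saline called 0.00634% of all genes, or 1 gene, and 0 of 10 members, whose fold changes ran from -0.19 (Igfbp5) to 0.32 (Igfbp3) with a median of 0.01. In room air edgeR called 0% of all genes and 0 of 10 members, which ran from -0.17 (Igfbp3) to 0.40 (Igfbp2) with a median of 0.08. In room air 949 genes, or 6.02% of those tested, had an unadjusted p under 0.05 by edgeR, DESeq2 called 15 genes and limma-voom 0. Averaged over oxygen levels 0.0444% of genes were called, or 7 genes, and again 0 members, with values of -0.06 (Igfbp5) to 0.18 (Igfbp2) and a median of 0.07. In that average DESeq2 called 86 genes and limma-voom 9, against 8 and 3 in hyperoxia. For the interaction of ATG and oxygen 0% of genes and 0 members were called, with members between -0.44 (Igfbp2) and 0.50 (Igfbp3) around a median of -0.10. In the interaction 465 genes, or 2.95% of those tested, had an unadjusted p under 0.05 by edgeR, among them 1 member, Igf1. There DESeq2 and limma-voom each called 0 genes. Igf1 had a log2 fold change of -0.16 for ATG in hyperoxia, 0.13 in room air and -0.02 averaged (adjusted p = 0.890, 0.905 and 0.953, edgeR). Missing the threshold does not show that ATG left these genes alone.

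Proteases and inhibitors that set how much IGF is free moved in both directions in the mean hyperoxia contrast. Over all genes 11.0% rose and 11.3% fell in that contrast, with a median of 0.00, which is the background for each list. Of 9 tested genes in the availability list (11 listed), 3 rose and 2 fell, with a median of 0.32. Htra1, a secreted protease that cuts IGF binding proteins, fell by 0.60 on the log2 scale (adjusted p = 0.000517, edgeR), at 32.2 to 47.2 CPM in hyperoxia against 55.6 to 68.0 CPM in room air. Pappa, which encodes pappalysin-1, rose by 0.60 (adjusted p = 0.0102), and its relative Pappa2 fell by 0.50 (adjusted p = 0.00613). Stc1 and Stc2 encode stanniocalcins, and stanniocalcin-2 is an inhibitor of pappalysins. Stc1 rose by 0.55 (adjusted p = 0.00571) and Stc2 by 0.94 (adjusted p = 0.0286). Without the 3 heart- or muscle-rich libraries Pappa was at 0.51 (adjusted p = 0.0755) and Pappa2 at -0.29 (adjusted p = 0.0615), while Htra1 and Stc1 passed in all 20 alternatives. The Stc2 call was lost without saline hyperoxia replicate 2 (0.87) or 3 (0.86), ATG room air replicate 1 (0.97), or saline room air replicate 2 (0.84) or 3 (0.87), and without the 2 heart-rich libraries (0.86). Igfbp1 was listed at 0 counts in 10 of the 12 libraries and was not tested.

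Of 26 tested genes of receptor signalling (27 listed), 3 rose and 2 fell, with a median of 0.02. Grb10, an imprinted adaptor that dampens insulin and IGF receptor signalling, fell by 0.32 on the log2 scale (adjusted p = 0.00177, edgeR). Eif4ebp1, a translational repressor downstream of mTOR, rose by 0.42 (adjusted p = 0.00937), and the transcription factor Foxo3 by 0.29 (adjusted p = 0.0121). All 3 passed in all 20 alternatives. The kinase Akt1 fell by 0.22 (adjusted p = 0.0170), a call lost without ATG hyperoxia replicate 3 (-0.17), saline hyperoxia replicate 1 (-0.19) or saline room air replicate 1 (-0.18), or without the 3 rich libraries (-0.22, adjusted p = 0.0958). Pik3cb, a catalytic subunit of phosphoinositide 3-kinase, rose by 0.22 (adjusted p = 0.0417), named here after its value was seen to complete the count. The Pik3cb call was lost when any of 7 libraries was left out, at 0.19 to 0.23: ATG hyperoxia 1, saline hyperoxia 1 and 3, ATG room air 1 and 3, and saline room air 1 and 3. It was 0.27 without the 3 rich libraries (adjusted p = 0.0686). The insulin receptor Insr was at 0.10 (adjusted p = 0.358) and the adaptor Irs2 at -0.14 (adjusted p = 0.433).

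Of the 3 IGF2 mRNA-binding proteins, which bind Igf2 and other transcripts, 2 rose. Igf2bp2 rose by 0.61 on the log2 scale (adjusted p = 0.000847, edgeR), at 59.2 to 87.4 CPM in hyperoxia against 37.9 to 57.3 CPM in room air, and passed in all 20 alternatives. Igf2bp1 was at 0.38 (adjusted p = 0.0399). That call was lost when any of 8 libraries was left out, at 0.33 to 0.40: ATG hyperoxia 1 and 2, saline hyperoxia 1 and 3, ATG room air 1 and 2, and saline room air 1 and 2. It was 0.38 without the 2 heart-rich libraries (adjusted p = 0.0535), 0.36 without all 3 rich ones (adjusted p = 0.126) and 0.37 by limma-voom (adjusted p = 0.0503).

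Of 17 imprinted growth genes, which include H19 and Grb10, 8 fell and 1 rose, with a median of -0.31, where 11.3% of all genes fell and 11.0% rose. Mest, a gene of embryonic mesoderm expressed from the paternal allele, was at 276, 314 and 329 CPM in ATG hyperoxia and 287, 311 and 284 CPM in saline hyperoxia, against 759, 566 and 735 CPM in ATG room air and 528, 508 and 648 CPM in saline room air. No hyperoxia library reached the room air range, and the mean contrast was -1.05 (SE 0.085, adjusted p = 1.55e-06, edgeR). Dlk1, which encodes a transmembrane protein related to the Notch ligands, fell by 1.12 (adjusted p = 0.00024), at 10.5 to 23.8 CPM in hyperoxia against 28.5 to 41.7 CPM in room air. Nnat fell by 0.59 (adjusted p = 0.000617), and Plagl1, a zinc-finger regulator of imprinted genes, by 0.42 (adjusted p = 0.000792). These 4 passed in all 20 alternatives. Zim1, the gene that rose, was at 0.55 (adjusted p = 0.0129) and is named after its value was seen. Zim1 was at 0.37 without the 3 heart- or muscle-rich libraries (adjusted p = 0.120). No gene of the 4 lists passed in the ATG comparisons or the interaction.

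**Figure D4:**
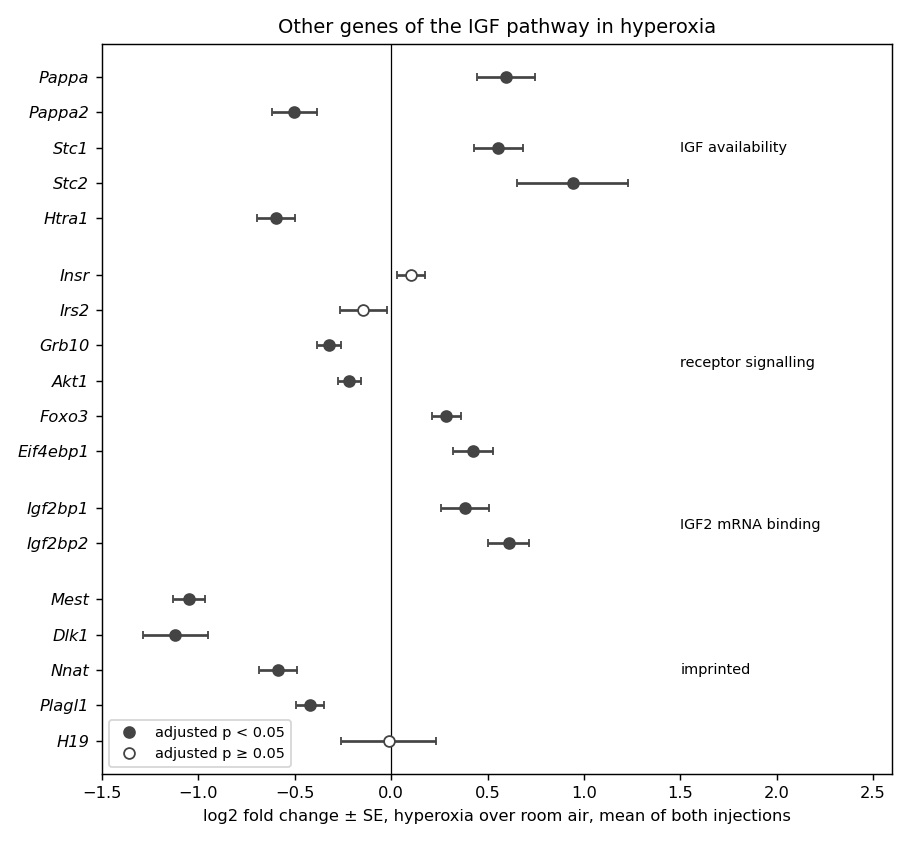
Log2 fold change with SE, hyperoxia over room air averaged over both injections, for named genes of the 4 lists. Pik3cb and Zim1, which both rose, are not plotted, nor is Igfbp1, which was not tested. Filled points passed an adjusted p of 0.05. Mest and Dlk1 lie furthest left, at -1.05 and -1.12, and Stc2 furthest right, at 0.94.

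Among 11972 genes with a mean of at least 5 CPM, those whose log2 CPM followed Igf2r most closely over the 12 libraries, by Pearson r, were Ids (0.965), Scpep1 (0.963) and Slc4a4 (0.960). For Igfbp4 they were Jade1 (0.968), Phf19 (0.964) and Klf12 (0.962). For Igfbp7 they were Cd81 (0.954), Bmp3 (0.936) and Nars (0.935). The libraries share the oxygen groups, so these values describe likeness in this design.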

How the data were processed

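RNA of the 12 lung libraries was amplified with the Ovation V2 kit and, per the labels' protocols, sequenced as paired reads on a HiSeq instrument. Raw read counts per gene were deposited by the authors. The submitters' processing notes name the build mm10 and Bowtie2, Cufflinks and DESeq, without roles. Which tool, strand setting and annotation made the counts is not given in the sources used here, so reads of overlapping antisense genes cannot be told apart.

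Counts were tested with edgeR 4.0.16 (R 4.3.3): TMM scaling, filterByExpr with a minimum count of 10 and total of 15, and a quasi-likelihood test with 1 mean per group over all 12 libraries (8 residual degrees of freedom). Alternatives used DESeq2 1.42.0 and limma 3.58.1, another scaling, no filter, a replicate block, sex as a covariate, the compared groups alone, and left-out libraries. The fit was also run on simulated counts. These held no library rich in transcripts of other organs, so that run does not bear on such libraries here. Levels are CPM; lengths are the union of GENCODE exons. No 2 libraries of a group agreed within sampling noise (chi-square per degree of freedom 6.27 to 37.2).

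The members and gene lists were chosen with earlier results of these data known. Named genes were all members, up to 4 genes per list with the smallest adjusted p, 8 fixed genes, and for the 3 members with the smallest adjusted p the 3 genes most like each. Marker lists were summed per library: macrophage markers were at 233 to 290 CPM, lung fibroblast markers at 5316 to 7351, mesothelial markers at 157 to 400, cartilage markers at 0.94 to 10.1, thymocyte markers at 1.23 to 54.5 and adipocyte markers at 0.20 to 15.0 CPM. Sex, from sex-linked transcripts, was 1 female and 2 male libraries in ATG hyperoxia and 2 and 1 in saline hyperoxia. It was 2 and 1 in ATG room air, and 0 and 3 in saline room air. Sex is therefore partly mixed with hyperoxia after saline and with ATG in room air.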

Additional observations from a re-analysis of the deposited data

How the results depend on the processing

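The calls of Igf2r, Igfbp4 and Igfbp7 in the mean hyperoxia comparison held in all 20 alternatives, and that of Igf1 in 19. With 1 library left out, the number of members called was 1 to 3 after saline and 1 to 4 after ATG, against 3 in each with all libraries. Over the same fits 740 to 1168 genes were called after saline and 1150 to 2045 after ATG, against 1449 after saline and 1838 after ATG with all libraries. When only the 6 ATG libraries were fitted, 1 member and 1265 of 15241 genes were called. Deviations from the group means in log2 CPM were correlated between same-numbered libraries of different groups, at -0.16 to 0.28 over 18 pairs. The 2 pairs above 0.1 were hyperoxia replicates 2 after either injection (0.28), the 2 heart-rich libraries, and hyperoxia replicates 3 (0.13). Differently numbered libraries were not compared in this way, so these values do not settle whether replicate numbers pair the libraries. With a replicate block, 4 members and 1763 of 15761 genes were called after ATG, 2 members and 1356 genes after saline, 5 members and 3440 genes averaged, and 0 members in each ATG comparison and the interaction. The block ended the calls of Igfbp4 after saline (-0.32, adjusted p = 0.0663), Igf2bp1 (0.39, adjusted p = 0.0554) and Pik3cb (0.22, adjusted p = 0.0563) and made calls of Igfbp3 after ATG (0.84, adjusted p = 0.0322) and averaged (0.62, adjusted p = 0.0151), all by edgeR.

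No called member changed direction in any alternative. With 1 library left out, values that changed sign ranged as follows in log2 units. In hyperoxia after ATG, Igf2 ran from -0.22 to 0.92, Igf1r from -0.17 to 0.043, Igfbp2 from -0.52 to 0.018, Igfbp5 from -0.53 to 0.31 and Igfbp6 from -0.25 to 0.32. After saline, Igf1r ran from -0.086 to 0.043, Igfbp2 from -0.078 to 0.35 and Igfbp5 from -0.18 to 0.52. Averaged, Igf1r ran from -0.091 to 0.014, Igfbp2 from -0.19 to 0.074, Igfbp5 from -0.12 to 0.30 and H19 from -0.36 to 0.13. For ATG over saline, Igfbp3 ran from -0.19 to 0.54 in hyperoxia and from -0.40 to 0.038 in room air, Igfbp5 from -0.76 to 0.29 in hyperoxia and from -0.35 to 0.18 averaged, and Igf1 from -0.0497 to 0.016 averaged. The interaction of Igfbp3 ran from -0.012 to 0.73.

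Without the 2 heart-rich libraries, the values that turned were, after ATG, Igf2 (-0.22), Igfbp5 (-0.53) and Igfbp6 (-0.25), after saline, Igf1r (0.027), Igfbp2 (-0.079) and Igfbp5 (-0.18), and averaged, Igf2 (-0.049), Igfbp5 (-0.36) and Igfbp6 (-0.042). ATG over saline turned for Igfbp3 in hyperoxia (-0.054) and for Igf1 averaged (0.041). Without all 3 heart- or muscle-rich libraries they were, after ATG, Igf2 (-0.21), Igfbp5 (-0.52) and Igfbp6 (-0.24), after saline, Igf2 (-0.37), Igf1r (0.046), Igfbp3 (-0.20) and Igfbp5 (-0.074), and averaged, Igf2 (-0.29), Igfbp2 (0.018) and Igfbp5 (-0.30), with Igf1 at 0.0035 for ATG over saline averaged. After ATG, Igfbp5 was -0.10 by limma-voom and -0.086 with a replicate block, and Igfbp6 was -0.11 with sex as a covariate. The cause of these turns was not tested. Depth limited Igfbp6 most, with 61 to 157 counts per library.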

Other observations

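Saline room air replicate 2 held liver transcripts. The sum of 6 hepatocyte markers was 104 CPM there, with Alb, the albumin gene, at 73.2 CPM, against 1.45 to 4.27 CPM in the other 11 libraries. Igfbp1, a binding protein made mainly by liver, had 19 counts in that library, 5 in saline hyperoxia replicate 1 and 0 in the other 10. Thymocyte markers were at 54.5 CPM in saline hyperoxia replicate 2 and 19.8 CPM in saline hyperoxia replicate 3, against 1.23 to 10.3 CPM in the other 10 libraries. Their part in the levels of the IGF genes was not tested.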
